A study of Drosophila melanogaster with 32 samples.

Results

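Females of Drosophila melanogaster populations that had evolved under promiscuity were compared with females of populations that had evolved under monogamy, each female having been mated to males of her own population. Arrays were taken by the cross named on their label, and no measured value entered that rule. They are the 8 arrays labelled P.P (Prom female, Prom male) and the 8 arrays labelled M.M (Mono female, Mono male), 16 of the 32 arrays in the series. All populations descend from LHM, a laboratory-adapted outbred stock. Its 4 Mono populations, Mono1 to Mono4, had a single mating each generation, and its 4 Prom populations, Prom1 to Prom4, were kept on the stock's usual promiscuous schedule. After 46 generations adult females were mated and frozen 6 h later, and RNA of the whole body was hybridised to Affymetrix arrays, in 2 batches with 1 array per cross and batch. The other 16 arrays hold the mismatched crosses, P.M (Prom females with Mono males) and M.P (Mono females with Prom males). They are used here only to show how the same female populations compared when the mates were exchanged. Below, a Prom pair is a Prom female with a male of her own population, and a Mono pair is a Mono female with a male of hers. The labels name no drug, transgene or mutation in any group, and they do not say how many females were pooled for an array.

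In flies, mating changes the female. Sperm and seminal fluid proteins, among them sex peptide, reach her reproductive tract and haemolymph, and within hours egg maturation, egg laying, feeding, juvenile hormone production and the expression of immune peptides change. Where females mate with several males, the interests of the sexes differ more than under monogamy, and selection on how males alter females and on how females respond can relax when each female has a single mate. A comparison of pairs that evolved together addresses the state such populations reach. In that comparison the female's own regime and her mate's regime change at once, so a female effect and a male effect cannot be told apart within it.

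Values are log2 expression levels per probe set as the authors normalised them, and a difference of 1 is a doubling. Each population counted once, as the mean of its 2 arrays, so that 4 Prom populations stood against 4 Mono populations. A probe set was called at an adjusted p under 0.05 (limma, with the Benjamini-Hochberg correction over all 18769 probe sets). The arrays were alike. Array medians lay between 5.39 and 5.49, and arrays of the same population correlated at 0.9958 to 0.9976. Arrays of the same batch correlated at a median of 0.9959 within a regime and 0.9956 between regimes. The signal of control probes near the 3′ end of actin exceeded that near the 5′ end by 2.41 in Prom pairs and 2.42 in Mono pairs (exact permutation test, two-sided, p = 0.943, 4 against 4 populations). Some markers of the adult female were high. The yolk protein gene Yp1 lay between 14.68 and 14.77 in all populations, the oocyte gene osk between 12.56 and 12.83 and the vitelline membrane gene Vm26Aa between 13.61 and 13.89. Others were not, with the ovary genes vas between 5.89 and 6.28 and grk between 8.13 and 8.32. The fat body gene Fbp2 lay between 4.01 and 4.35. The sperm-tail gene dj and the seminal fluid gene Acp26Aa lay at means of 2.71 and 2.76 in Prom pairs, near the lowest values on the arrays, while another seminal fluid gene, Acp95EF, lay at 7.10. In whole bodies, fewer cells of a type and less RNA per cell cannot be told apart.

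No probe set passed between Prom and Mono pairs, and the lowest adjusted p was 0.196. At an unadjusted p under 0.05 there were 1166 probe sets, or 6.21%, of which 645 (3.44%) were higher in Prom pairs and 521 (2.78%) lower. Taking for each of 11981 genes its brightest probe set, 803 genes had such a p (6.7%), 504 of them higher (4.21%) and 299 lower (2.5%). In 481 genes, 4.01% of the total, the 4 Prom population means did not overlap the 4 Mono population means. Of these, 319 (2.66%) lay higher in Prom pairs and 162 (1.35%) lay lower. The differences were small. Their median size over all genes was 0.05 on the log2 scale against a median standard error of 0.06, and 95% of them were under 0.22. Only 17 genes (0.142%) differed by 2-fold or more. In 56.6% of the genes the difference had the same sign in both batches.

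The gene with the lowest adjusted p was wat (waterproof), on chromosome arm 3R, which encodes a fatty acyl-CoA reductase of the kind that makes the surface and tracheal lipids that keep insects from drying out. Its log2 level was 9.24, 9.27, 9.22 and 9.31 in the pairs of Prom1 to Prom4 and 8.86, 8.92, 8.89 and 8.77 in those of Mono1 to Mono4. Every Prom population stood above every Mono population, and the populations of a regime were close to each other. The difference was 0.40 ± 0.05 (SE), a ratio of 1.32, at an adjusted p of 0.196, and it was 0.42 in the first batch and 0.39 in the second. In the mismatched crosses it was 0.25, again without overlap between the female regimes.

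The 9 other genes with the lowest p among those higher in Prom pairs were CG11550, CG5687, nom, CG43402, Vago, mthl8, CG18404, CG18661 and CG31821. None passed the test. Their differences ran from 0.21 for Vago, a secreted protein of the antiviral response, to 0.76 for CG18404, with adjusted p from 0.247 to 0.533. In CG11550 the Prom populations stood at 6.27, 6.42, 6.20 and 6.34 and the Mono populations at 5.95, 5.96, 5.94 and 5.88, a difference of 0.38 ± 0.05. CG18404 stood at 11.52, 11.18, 11.29 and 11.59 in the Prom populations and 10.82, 10.85, 10.69 and 10.18 in the Mono populations. The difference for mthl8, which encodes a receptor of the Methuselah family, was 0.53 ± 0.11, and a second probe set of the gene gave 0.34, also without overlap. These genes lay on several chromosome arms, with wat, CG11550, nom and CG18404 on 3R, CG5687 and mthl8 on 3L, Vago on X, and CG43402, CG18661 and CG31821 on 2L.

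On the lower side in Prom pairs, the 10 genes with the lowest p were CG40485, CG11597, tobi, Zip102B, alpha-Est2, CG3699, IscU, CG9760, CG10029 and CG3609. None passed the test, and their adjusted p ran from 0.247 to 0.533. Zip102B, on chromosome 4, belongs to the ZIP family of zinc transporters. It stood at 7.53, 7.13, 7.24 and 7.50 in the Prom populations and at 7.84, 8.73, 8.34 and 8.50 in the Mono populations, so that no population overlapped. The Mono level was 2-fold the Prom level, with a standard error of 0.18 on the log2 scale, at an adjusted p of 0.533. The log2 difference was -1.16 in the mismatched crosses. IscU, the scaffold on which mitochondria build iron-sulphur clusters, lay at 11.05, 11.07, 10.94 and 10.94 in Prom pairs and at 11.23, 11.21, 11.34 and 11.31 in Mono pairs. The regimes did not overlap, and the difference was -0.27 ± 0.05. alpha-Est2, a carboxylesterase of the alpha-esterase cluster, differed by -0.61 ± 0.11. CG40485 had the lowest p on this side, with a difference of -0.89 ± 0.13 and an adjusted p of 0.247. Its Prom populations lay at 6.39, 6.17, 6.12 and 6.14 and its Mono populations at 7.41, 7.05, 7.17 and 6.76. A second probe set of CG40485 gave 0.17, in the other direction, so the probe sets of this gene disagree.

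Among genes whose population means did not overlap and whose sign was the same in both batches, those with the largest differences included several that were low in some Mono populations. CG12061, on X, stood at 7.60, 7.90, 8.11 and 7.68 in Prom pairs and at 4.67, 6.07, 5.52 and 7.08 in Mono pairs. The Prom populations were close together, whereas the Mono populations spread over 2.41. The mean difference was 1.99 ± 0.42, a ratio of 3.96, at an adjusted p of 0.533, and in the mismatched crosses it was 2.03. CG17470 differed by 1.21, CG14187 by 0.98, and FucTC, which encodes a fucosyltransferase, by 0.96. AANATL4, a member of the arylalkylamine N-acetyltransferase family that acetylates amines, stood at 8.06, 8.02, 7.35 and 7.85 against 7.13, 6.84, 7.19 and 6.44, a difference of 0.92. The same rule named 2 further genes that lay lower in Prom pairs, Mal-B1 and CG16704, the latter with a difference of -0.77.

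**Figure D1:**
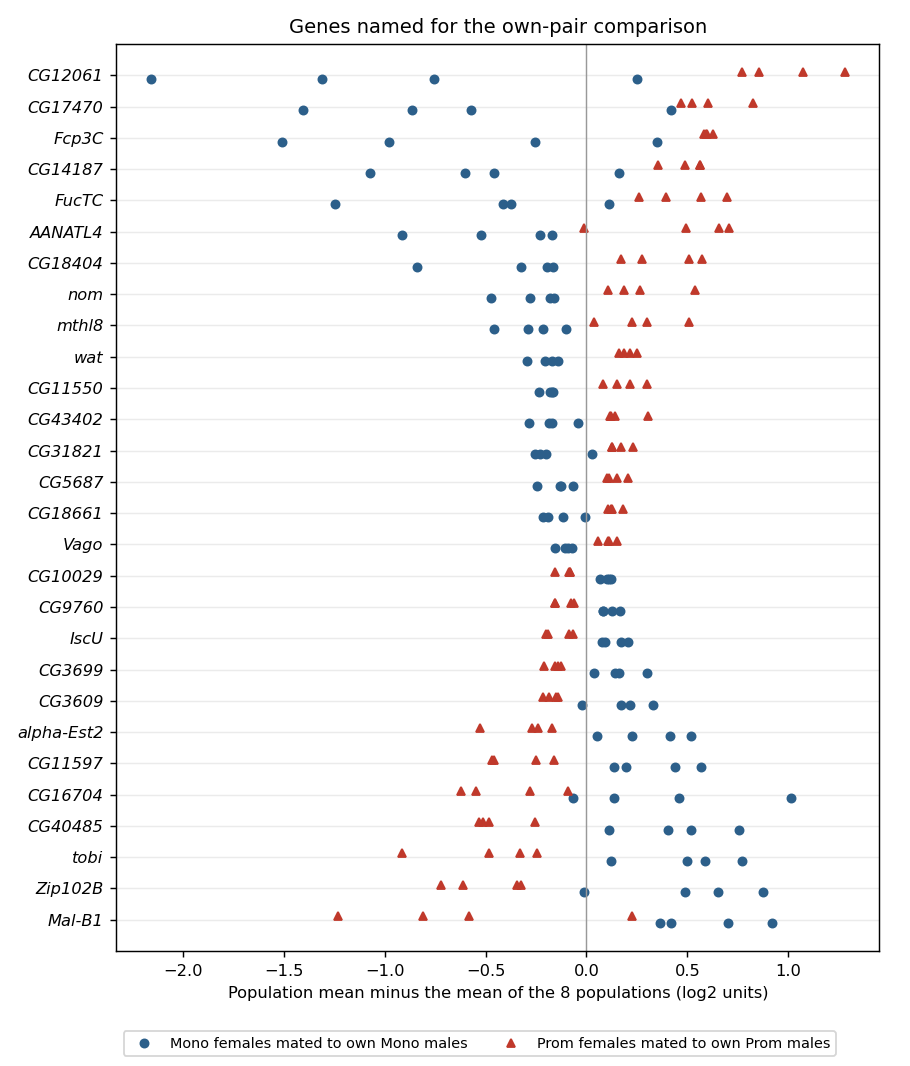
The log2 level of each of the 28 named genes in the 4 Prom pairs (red triangles) and the 4 Mono pairs (blue circles) is plotted as a deviation from the mean of the 8 population means, with 1 point for the mean of the 2 arrays of a population. The rule that named these genes favours groups that do not overlap, and the widest gaps belong to genes such as CG12061 in which the Mono populations also differ most among themselves.

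The mismatched crosses hold the same 8 female populations and no array of the own pairs. All 10 genes of lowest p on the higher side and 8 of the 10 on the lower side had the same sign there, as had 24 of all 28 named genes. The exceptions were CG9760, CG10029, CG14187 and Fcp3C. The share of all genes with the same sign in both kinds of cross is not given here. In 9 of the 28 the female regimes did not overlap there either, in the same direction as in own pairs. Over all genes 783 (6.54%) were separated in the mismatched crosses, counting either direction. Because the crosses share their populations, this is a second reading of the same 8 populations with other mates and not a second set of populations. Of the 481 genes that did not overlap in own pairs, 76 (15.8%) did not overlap in the mismatched crosses in the same direction, which is 9.71% of the mismatched list, and 2 did so in the opposite direction.

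The gene list with the lowest median was that of the sugar-cleaving alpha-glucosidases. Maltases are secreted in the gut, and tobi (target of brain insulin) is an alpha-glucosidase of the gut and fat body whose expression follows dietary protein and sugar through insulin-like and glucagon-like hormones. Of the 12 genes of the list, 10 lay lower in Prom pairs and 2 higher, 7 had an unadjusted p under 0.05, all of them lower, and none passed the test. Over all genes 54.9% lay higher and 45.1% lower, and 2.5% lay lower with such a p. The list's median difference was -0.69, beside 0.01 over all genes. In tobi the Prom populations lay at 9.56, 9.12, 9.79 and 9.71 and the Mono populations at 10.16, 10.63, 10.54 and 10.81, without overlap. The difference was -0.99 ± 0.17 at an adjusted p of 0.533. Mal-B1 stood at 7.37, 6.56, 5.92 and 6.34 against 7.51, 8.07, 7.85 and 7.57, with Prom1 just below the lowest Mono population. Its difference was -1.20 ± 0.27.

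The Mal-A genes, which form a cluster on arm 2R, were less evenly separated. Mal-A1 lay at 11.43, 11.07, 11.93 and 11.43 in the Prom populations and at 11.47, 12.53, 12.62 and 12.06 in the Mono populations. Mono1 stood within the Prom range, and the difference was -0.71 ± 0.26. Mal-A7 showed the same arrangement, with Mono1 at 8.07 and the other Mono populations between 8.99 and 9.17, against 7.06 to 8.49 in the Prom populations. Mal-A4 differed by -0.71. The lowest difference in the list was -1.38, for Mal-A6. Without Mono1 the list's median was -0.82 and 11 of 12 genes lay lower, and without Prom2, which had the lowest levels of tobi, Mal-A1, Mal-A4 and Mal-A7, the median was -0.51 and 9 of 12 lay lower. In the mismatched crosses the list's median was -0.34, with 10 of 12 genes lower in Prom females. Among the populations of a regime, 5 of the 12 genes differed in Prom pairs and 3 in Mono pairs at an adjusted p under 0.05 (limma F test), beside 2.09% and 3.39% of all genes. Whether probe sets of these related genes read each other's transcripts was not tested.

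**Figure D2:**
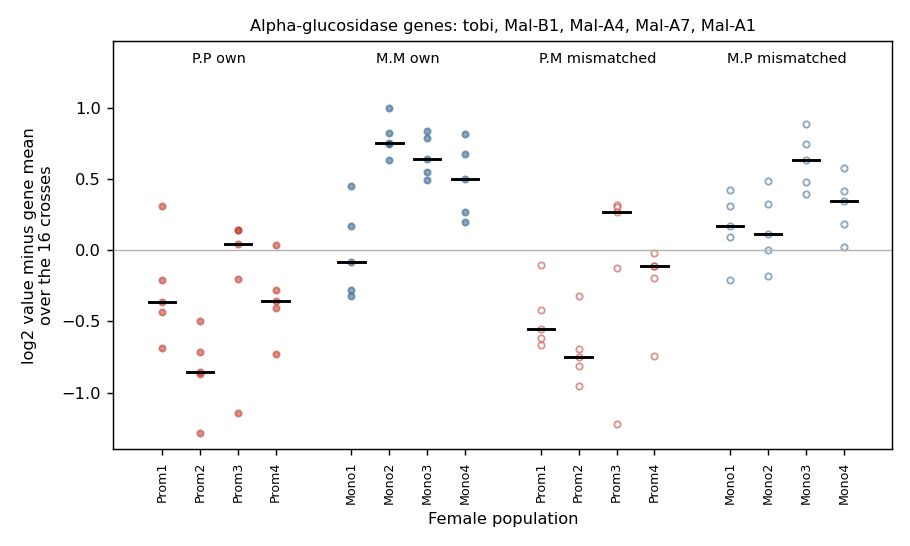
Each circle is 1 of the 5 alpha-glucosidase genes with the lowest p of the list in 1 female population, as the mean of 2 arrays minus the gene's mean over all 16 crosses (log2), and black bars are medians over the 5 genes. Filled circles are own pairs and open circles mismatched crosses, red for Prom and blue for Mono females. Among own pairs, those of Mono2, Mono3 and Mono4 lie highest and those of Prom2 lowest, and those of Mono1 lie near 0.

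Among genes of the immune response to infection, the lists of secreted peptides had medians below 0 that moved toward 0 without Mono1, and the Toll and Imd pathway lists had medians near 0. Bomanins are short secreted peptides made by the fat body under the Toll pathway and needed for resistance to many bacteria and fungi. All 9 genes of the list of Bomanins and IM33 lay lower in Prom pairs. An unadjusted p under 0.05 was found for 3, none was without overlap, and none passed the test. Of all genes, 45.1% lay lower, 2.5% with such a p and 1.35% without overlap. The median difference of the 9 was -0.39. BomBc3 stood at 8.99, 9.43, 9.05 and 9.04 in the Prom populations and at 10.79, 9.91, 9.26 and 9.47 in the Mono populations. Mono1 was the highest, and Mono3 lay below Prom2. The difference was -0.73 ± 0.29 at an adjusted p of 0.783. BomS4 was more even, at 8.96, 9.02, 8.89 and 9.20 against 9.39, 9.15, 9.15 and 9.41, a difference of -0.26 ± 0.09. The values for the other 7 ran from -0.85 for BomBc2 to -0.18 for IM33, with BomT3 at -0.39, BomS6 at -0.36, BomT2 at -0.30, BomS2 at -0.60 and BomS5 at -0.48. Without Mono1 all 9 still lay lower, with a median of -0.22 and 2 genes at an unadjusted p under 0.05.

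The antimicrobial peptide genes also lay mostly lower in Prom pairs, and Mono1 again had the highest mean over the list. Their differences ran from -1.22 to 0.13, against -0.85 to -0.18 in the Bomanin list. Of 12 genes, 10 lay lower in Prom pairs, 1 of them with an unadjusted p under 0.05. The shares over all genes were 45.1% and 2.5%. The list's median was -0.20, and without Mono1 it was -0.06 with 8 of 12 lower. In DptB, a diptericin that acts on Gram-negative bacteria and is induced through the Imd pathway, Mono1 pairs stood at 11.85, the other Mono populations at 7.16, 6.66 and 8.46, and the Prom populations at 8.42, 7.16, 6.55 and 7.13. The other 3 Mono populations lay within or near the Prom range, and the difference of -1.22 ± 1.00 came with Mono1 far above all other populations. Among the drosomycin-like genes, Drsl5 differed by -0.33, Drsl2 by -0.35, and Drsl6, the member with an unadjusted p under 0.05, by -0.11 at levels near 4. Of 16 Imd pathway genes, 12 lay lower with a median of -0.03, and without Mono1 8 lay lower and 8 higher. PGRP-SB1, a peptidoglycan-cleaving amidase, differed by -0.58 with Mono1 at 10.88, and PGRP-SC2, an amidase that damps the response in the gut, by -0.75 with Mono1 as the lowest Mono population, at 8.62. The 16 genes of the Toll pathway itself were split, with 9 higher and 7 lower and none at an unadjusted p under 0.05.

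Haemocyte and iron-binding genes were read with these. Of 23 genes of haemocytes, thioester proteins and melanisation, 15 lay lower and 8 higher at a median of -0.04, and 2 had an unadjusted p under 0.05, both lower. Over all genes 45.1% lay lower, 2.5% with such a p. In the mismatched crosses 16 of the 23 lay higher. The second of the 2 was PPO3, a prophenoloxidase, at -0.16 ± 0.07. NimB4, of the Nimrod family, differed by 0.20 ± 0.10 and Ddc, the dopa decarboxylase that supplies cuticle and melanin synthesis, by -0.13 ± 0.07. Hml (Hemolectin), a clotting protein and haemocyte marker, lay at 7.10, 6.91, 6.76 and 6.90 in Prom pairs and at 7.05, 7.16, 7.11 and 7.14 in Mono pairs, a difference of -0.20 ± 0.07. Of the other haemocyte markers, eater lay at means of 5.38 and 5.58 in Prom and Mono pairs and NimC1 at 6.61 and 6.48, so the 3 did not share a direction. Whether the number of haemocytes had a part in the immune values was not tested. Tsf1 encodes a secreted transferrin that withholds iron from microbes. It stood at 11.41, 11.30, 10.95 and 11.22 in Prom pairs and at 12.52, 12.09, 11.39 and 12.18 in Mono pairs, with only Mono3 falling within the Prom range. The difference was -0.82 ± 0.21 at an adjusted p of 0.646. A second probe set of Tsf1 gave -0.86, and another, at a level of 3.18, near the floor of the array, gave 0.02.

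With the mates exchanged, the order of the immune genes was not the same. The median of the Bomanin list was 0.12 in the mismatched crosses, where 7 of 9 genes lay higher in Prom females, and that of the antimicrobial peptides was 0.03. Prom1 females mated to Mono1 males had the highest levels there, with BomBc3 at 10.22, while Mono1 females mated to Prom1 males stood at 9.37. The difference between the own-pair and the mismatched difference was -0.98 ± 0.40 for BomBc3, -0.77 ± 0.26 for Tsf1 and -1.57 ± 0.59 for DptB, with adjusted p of 0.509, 0.492 and 0.495. No gene passed that test, so the change of order between the kinds of cross is given as values only.

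**Figure D3:**
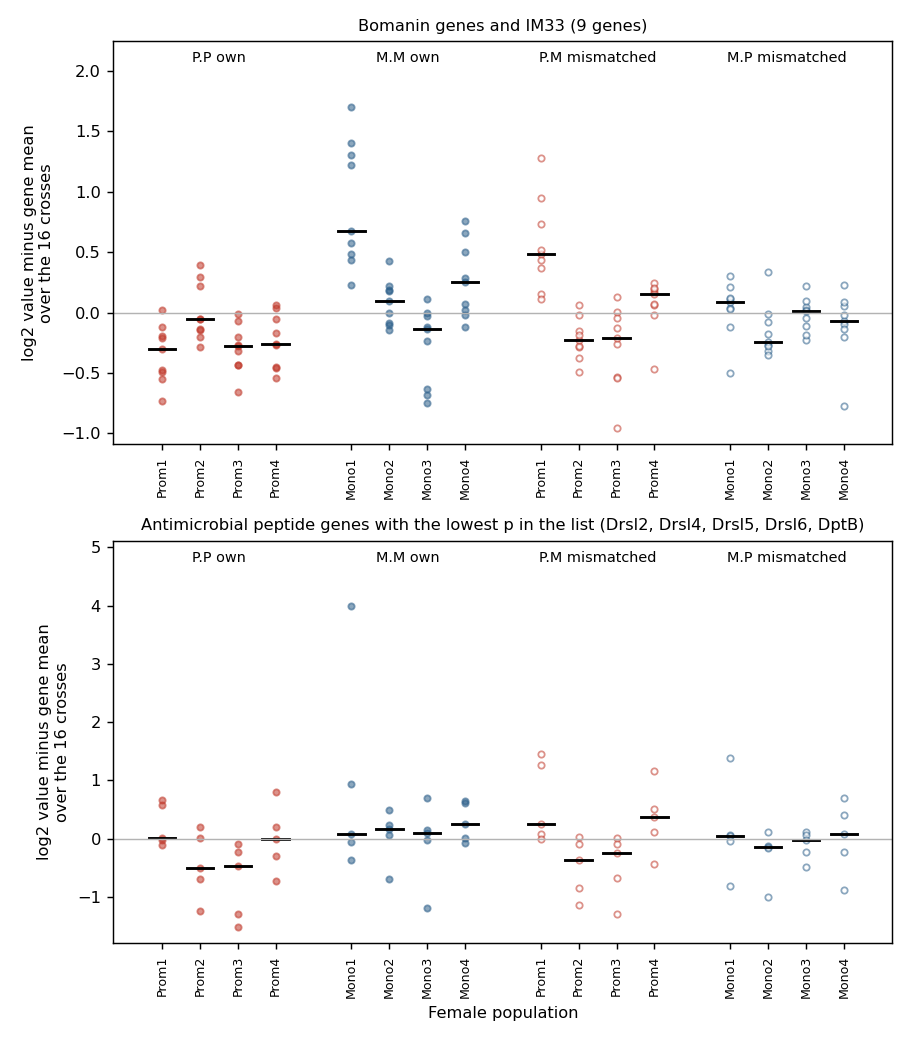
The upper panel shows the 9 genes of the Bomanin list and the lower panel the 5 named antimicrobial peptide genes in each female population, as the mean of 2 arrays minus the gene's mean over all 16 crosses (log2), with medians as black bars, own pairs filled and mismatched crosses open. The Mono1 pairs and the Prom1 females mated to Mono1 males hold the highest Bomanin values, and the single point near 4 in the lower panel is DptB in Mono1 pairs.

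Eggshell genes are switched on in turn by the follicle cells around each growing oocyte, first those of the inner vitelline membrane and then those of the chorion. Of 16 vitelline membrane and follicle cell genes, 14 lay higher in Prom pairs, 4 of them with an unadjusted p under 0.05 and 3 without overlap. Of all genes, 54.9% lay higher, 4.21% with such a p and 2.66% without overlap. None passed the test, and the list's median was 0.11. Vm32E, a vitelline membrane protein, stood at 10.41, 10.87, 10.90 and 10.57 in Prom pairs and at 10.15, 10.33, 10.12 and 10.14 in Mono pairs. Every Prom population lay above every Mono population, at a difference of 0.50 ± 0.11 and an adjusted p of 0.533. The gene dec (defective chorion), whose products are laid down in the eggshell, lay at 11.01, 11.08, 11.21 and 10.97 against 10.64, 10.92, 10.37 and 10.70, a difference of 0.41 ± 0.11. Fcp3C (Follicle cell protein 3C) was almost the same in the 4 Prom populations, at 8.74, 8.77, 8.72 and 8.73, and ranged widely in the Mono populations, at 7.89, 8.49, 6.64 and 7.17. Its difference of 1.20 ± 0.33 was 1.86 in the first batch and 0.53 in the second, and -0.38 in the mismatched crosses. Vm26Ac differed by 0.37. Femcoat, 1 of the 2 genes that lay lower, differed by -0.76 ± 0.35, and it gave -0.08 in the first batch and -1.44 in the second. Without Mono3 the list's median was 0.06 and 12 of 16 genes lay higher.

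The chorion genes had no settled direction. Of 10 genes, 6 lay lower in Prom pairs with a median of -0.14, but in the first batch the median was 0.23 and in the second -0.31, and it was 0.12 without Mono2 and 0.10 without Mono4. The major chorion genes Cp36 and Cp38 had differences of -0.26 ± 0.09 and -0.32 ± 0.14. Both of these, 2 of the 10, had an unadjusted p under 0.05, beside 2.5% of all genes that lay lower with such a p. Cp36 lay at 12.60, 12.45, 12.55 and 12.70 in Prom pairs and at 13.04, 12.73, 12.64 and 12.91 in Mono pairs, with only Mono3 inside the Prom range. The other chorion genes differed by less than 2 standard errors. Cp7Fc gave 0.35 ± 0.22, Cp19 -0.60 ± 0.46, Mur11Da -0.38 ± 0.38, Muc4B 0.19 ± 0.23, Cp15 -0.09 ± 0.19, Muc12Ea 0.11 ± 0.33, Cp16 -0.19 ± 0.64 and Cp18 0.08 ± 0.84. The yolk proteins, which are taken up by the oocyte, lay close together. Yp1 differed by 0.03 ± 0.04, Yp2 by 0.11 ± 0.05 and Yp3 by 0.03 ± 0.04, each at levels above 14, close to the top of the scale. The yolk receptor gene yl differed by -0.04 ± 0.05. In 33 genes of oogenesis and the germline the median was -0.01, with none at an unadjusted p under 0.05, and in 29 genes of the piRNA pathway, which silences transposons in the ovary, it was 0.01. Of these piRNA genes 18 lay higher and 11 lower, 1 and 2 of them with an unadjusted p under 0.05. Shares over all genes with such a p were 4.21% higher and 2.5% lower. The gene vas (vasa), a germline RNA helicase, differed by 0.21 ± 0.06. It was the only one of the 29 without overlap (3.45%, beside 4.01% of all genes). The gene nxf2 differed by 0.24 ± 0.12. On the lower side tapas differed by -0.16 ± 0.06, piwi, the nuclear Argonaute of that pathway, by -0.18 ± 0.08 and qin by -0.23 ± 0.11. A second probe set of tapas gave 0.06. In the mismatched crosses 22 of the 29 piRNA genes lay lower in Prom females, at a median of -0.07.

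Genes of the sperm storage organs and the sex peptide response are the closest in function to the mating itself. The list of the spermatheca and female tract held 18 genes, of which 14 lay higher in Prom pairs. An unadjusted p under 0.05 was found for 5, all higher, and none passed the test. Of all genes, 54.9% lay higher, 4.21% with such a p. No gene of the list was without overlap, beside 4.01% of all genes. The list's median was 0.17, and 0.12 in the mismatched crosses. The largest difference was that of CG32751, on X, which stood at 7.43, 6.55, 8.64 and 7.47 in Prom pairs and at 6.65, 3.87, 5.41 and 6.42 in Mono pairs. Prom2 lay below Mono1, and the difference was 1.94 ± 0.62 at an adjusted p of 0.685. It was 2.06 in the mismatched crosses, and the gene differed among the populations of both regimes. Nep2, a neprilysin that cleaves peptides outside the cell, lay at 7.93, 7.95, 8.10 and 7.89 against 7.69, 7.90, 7.43 and 7.56, with Mono2 inside the Prom range, a difference of 0.32 ± 0.09. Its relative Nep1 differed by 0.12 and Ser12, a serine protease of the list, by 0.38. Of 16 genes of the sex peptide response, 10 lay higher and 6 lower at a median of 0.02, with none at an unadjusted p under 0.05. The largest difference of that list was that of the receptor of sex peptide. This gene, SPR, stood at 7.70, 7.11, 7.72 and 7.18 in Prom pairs and at 7.58, 5.86, 6.55 and 6.90 in Mono pairs. These ranges overlap, and the difference was 0.70 ± 0.32 at an adjusted p of 0.802. A second probe set of SPR, at 3.04 near the floor of the array, gave -0.00. The next by p in the list were Sems at -0.11 ± 0.06, Esp at 0.11 ± 0.07, antr at 0.08 ± 0.06 and CG17575 at -0.08 ± 0.07.

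**Figure D4:**
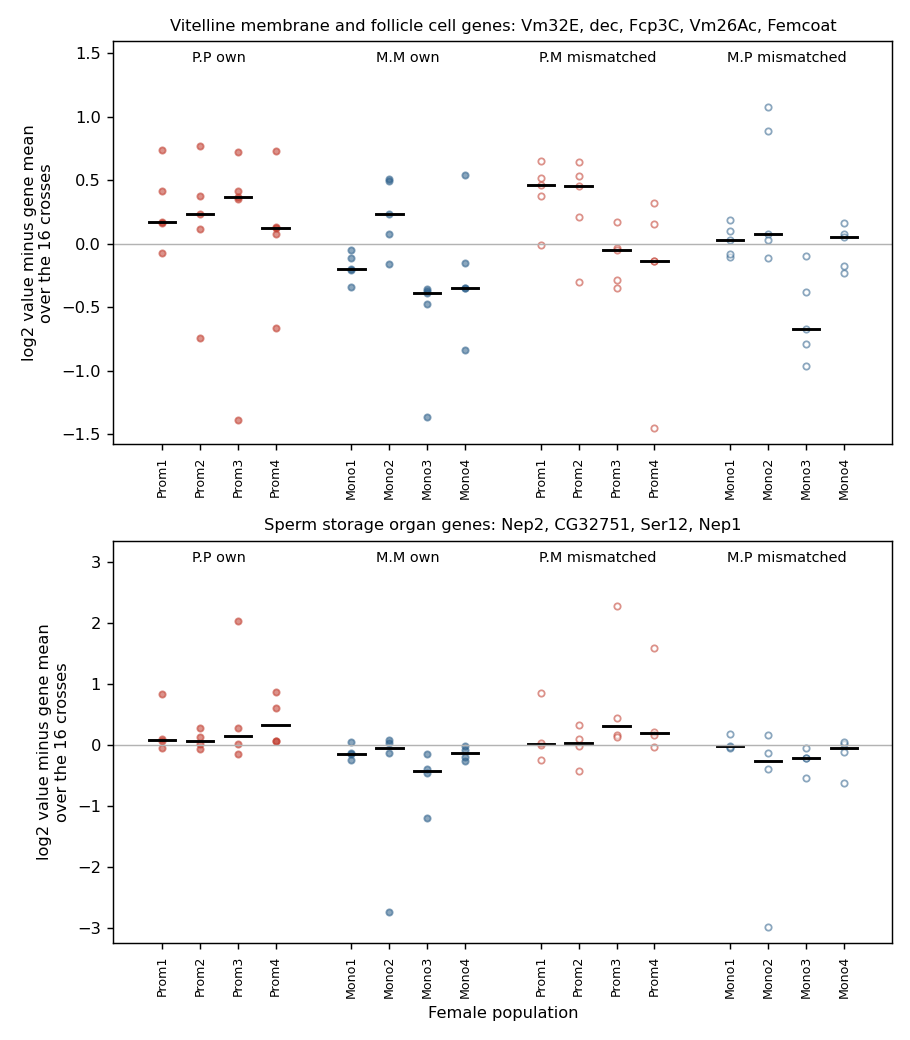
The 5 named vitelline membrane and follicle cell genes (upper panel) and 4 named genes of the sperm storage organs (lower panel) are shown in each female population as the mean of 2 arrays minus the gene's mean over all 16 crosses (log2), with medians as black bars, own pairs filled and mismatched crosses open. The lowest points in the lower panel are CG32751 in Mono2 females with either mate, and the low points of the Prom2, Prom3 and Prom4 pairs in the upper panel are Femcoat.

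Hormone genes were mixed. Juvenile hormone is made by the corpora allata and promotes yolk uptake and egg maturation after mating. The gene jhamt, which encodes the methyltransferase of the last steps of its synthesis, stood at 6.87, 6.77, 7.32 and 6.95 in Prom pairs and at 6.70, 6.55, 6.71 and 6.30 in Mono pairs, without overlap. The difference was 0.41 ± 0.13 at an adjusted p of 0.685, and 0.42 in the mismatched crosses. Jhe, the esterase that breaks the hormone down, lay higher at 0.50 ± 0.20, and its relative Jhedup at 0.24 ± 0.11. The gene of the hormone's receptor, gce, differed by -0.17 ± 0.05, and its second probe set by 0.05. Of the 15 genes of the list, 13 lay higher in Prom pairs, beside 54.9% of all genes, although the median was only 0.02. With cyclic loess normalisation 10 of the 15 lay higher. In the mismatched crosses 6 lay higher and 9 lower in Prom females, at a median of -0.04. Of 30 ecdysone genes, 16 lay higher in Prom pairs. Among them nvd (neverland), which acts first in ecdysone synthesis, differed by 0.41 ± 0.12, and ftz-f1, a nuclear receptor of the ecdysone response, by -0.13 ± 0.05. The insulin and TOR genes leaned lower, with 15 of 23 lower and a median of -0.05. Ilp8, the insulin-like peptide made in follicle cells around ovulation, differed by -0.22 ± 0.08, sima, which encodes the hypoxia-inducible factor, by -0.25 ± 0.11, and the insulin receptor InR by -0.26 ± 0.13. In InR, Prom1 stood apart at 7.63, with all other populations between 8.19 and 8.42.

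Among neuropeptides, ETH, the ecdysis triggering hormone, which in adult flies also acts on the corpora allata, differed by 0.49 ± 0.16. Pdf, the peptide of the clock neurons, lay at 6.71, 6.59, 6.62 and 6.58 against 6.44, 6.50, 6.41 and 6.48, and Burs (bursicon) at 4.33, 4.36, 4.34 and 4.35 against 4.55, 4.63, 4.58 and 4.46. The population means of both genes did not overlap, at differences of 0.17 ± 0.04 and -0.21 ± 0.05. They were the only 2 such genes among 33 neuropeptides (6.06%, beside 4.01% of all genes). Of the 33, 19 lay higher and 14 lower, at a median of 0.03. The octopamine receptor gene Octbeta1R differed by 0.23 ± 0.07, whereas its other probe sets gave -0.01 and 0.05. Of 20 genes of phototransduction, the chain from rhodopsin to the light-gated channels, 15 lay higher in Prom pairs, at a median of 0.08. An unadjusted p under 0.05 was found for 4, all higher. Of all genes, 54.9% lay higher, 4.21% with such a p. With cyclic loess 14 of the 20 lay higher and 1 had such a p. The channel genes trp and trpl both differed by 0.17, and inaC, the eye's protein kinase C, and its scaffold inaD both by 0.14. Odorant-binding proteins carry odorants and other small lipophilic molecules. Of 47 genes, 25 lay higher and 22 lower, with 7 at an unadjusted p under 0.05 among the higher and 2 among the lower. Over all genes 4.21% had such a p on the higher side and 2.5% on the lower. The 5 of lowest p were Obp69a at 0.26, Obp56d at 0.35, Obp19c at 0.59, Obp58c at -0.22 and Obp19d at 0.34. The largest difference in size was that of Obp56h, at -0.71 ± 0.30, the second lower gene with such a p, named after its value was seen. Of 165 odorant and gustatory receptor genes, 105 lay lower, at a median level of 3.57, close to the floor of the arrays, and 88 did in the second batch.

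In metabolism the shifts were within a narrow range. Desat1, the delta-9 fatty acid desaturase, lay at 12.15, 12.18, 12.24 and 12.16 in Prom pairs and at 12.39, 12.30, 12.42 and 12.37 in Mono pairs, without overlap. Its difference was -0.19 ± 0.04 in own pairs, -0.19 in each batch, and -0.20 in the mismatched crosses. The gene whd (withered), the carnitine palmitoyltransferase that admits fatty acids to mitochondria, lay the other way at 0.15 ± 0.04, again without overlap. FASN1, fatty acid synthase, differed by -0.16 ± 0.08, and the glycolytic enzyme gene Pgk by -0.16 ± 0.07. Over the 34 lipid genes the median was -0.02, and 2 (5.88%) were without overlap, beside 4.01% of all genes. Of 31 genes of zinc and other metal handling, 19 lay higher and 12 lower, so the values of Zip102B and Tsf1 were not those of the list. Zip42C.1 lay higher at 0.61 ± 0.17, and Zip88E lower at -0.15 ± 0.05. Of the digestive proteases, iotaTry differed by -0.31 and Jon25Bii by 0.29, with a list median of 0.00.

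Among detoxifying enzymes, glutathione transferases had 21 of 34 genes higher, 4 of them with an unadjusted p under 0.05. Of all genes, 54.9% lay higher, 4.21% with such a p. In 2 of the 34 (5.88%) the population means did not overlap, beside 4.01% of all genes. GstE1 lay at 11.32, 11.80, 11.27 and 11.32 against 10.75, 11.11, 11.19 and 11.09, without overlap, a difference of 0.39 ± 0.13. GstE10 differed by 0.28 and GstD11 by 0.23. The UDP-glycosyltransferase gene Ugt37B1 differed by 0.28 ± 0.07 and Ugt37A1 by -0.20 ± 0.05. In muscle 18 of 22 genes lay higher at a median of 0.07, among them bt (bent, projectin) at 0.21 ± 0.08, and without Mono1 13 did, at a median of 0.02. In own pairs the nuclear genes of mitochondria divided by function, but not stably. Of 69 mitochondrial ribosomal protein genes, 56 lay higher at a median of 0.03, with mRpS18C at 0.15, while 43 did with cyclic loess and 32 in the first batch. Of 72 oxidative phosphorylation genes, 55 lay lower at a median of -0.03, with ND-B8 at -0.18 and the weakly expressed ND-24L at 0.18. Without Prom3 34 of them lay lower, and in the second batch their median was 0.0045. In the mismatched crosses 61 of the 69 ribosomal and 48 of the 72 oxidative phosphorylation genes lay higher in Prom females.

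Of the remaining lists, 8 are given here, and no member of any of the 40 lists passed the test. Of 83 cytochrome P450 genes, 47 lay higher and 36 lower, with a median of 0.02. An unadjusted p under 0.05 was found for 1, beside 6.7% of all genes. Yet 16 of the 83 (all genes, 2.09%) differed among the Prom populations and 17 (all genes, 3.39%) among the Mono populations. The 41 cytosolic ribosomal protein genes had differences from -0.09 to 0.11, with a median of 0.00. Of 14 circadian clock genes 10 lay higher, and of 13 heat shock and chaperone genes also 10, both at a median of 0.04. The 5 Turandot genes, which encode stress-induced secreted peptides, had a median of -0.05 with 4 lower, at a median level of 4.14. TotC differed by -0.36 ± 0.43, with Mono1 far above the other populations at 9.39, and without Mono1 the difference was 0.11. TotB differed by -0.05, TotE by -0.05, TotF by -0.06 and TotZ by 0.05. Of 102 cuticle protein genes 65 lay lower at a median of -0.03, and in the second batch 50 did. Females have neither accessory glands nor a testis. Of 21 accessory gland genes 12 lay lower at a median of -0.04, and of 29 testis genes 15 did at a median of -0.02, with levels in the 2 lists up to 8.05 and 7.08.

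**Figure D5:**
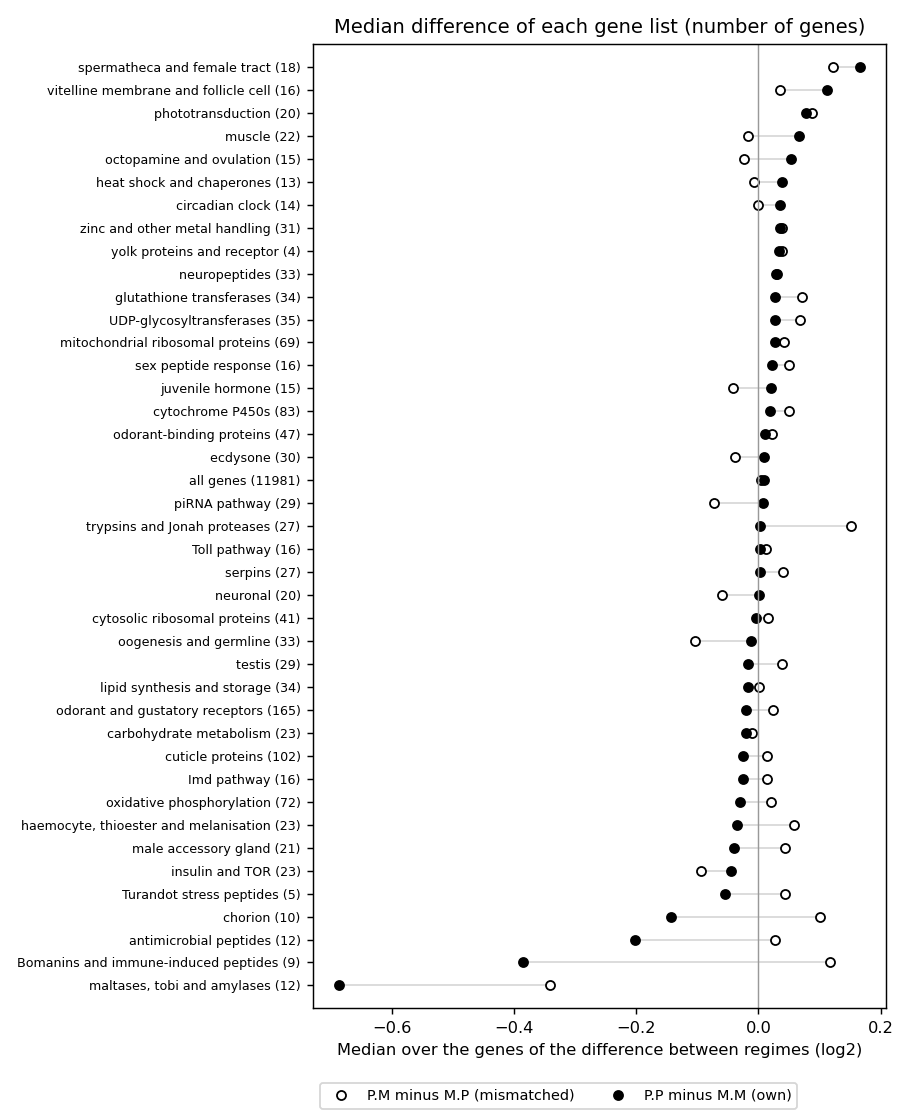
For each of the 40 gene lists and for all genes, the median difference between regimes is plotted for own pairs (filled circles) and mismatched crosses (open circles) on the log2 scale, with the number of genes in brackets. The maltase list lies lowest with both kinds of mate, the Bomanin, antimicrobial peptide and chorion lists lie below 0 in own pairs and above it in mismatched crosses, and most other lists lie within 0.1 of 0.

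The own-pair difference minus the mismatched difference equals the sum of the mate differences (Prom male minus Mono male) in Prom and in Mono females. It does not ask whether the gap between female regimes depends on the male, which was not tested. With population numbers 1 to 4 as the unit, no probe set passed, the lowest adjusted p was 0.492, and 1803 probe sets (9.61%) had an unadjusted p under 0.05. The genes with the lowest p on the positive side, where the own-pair difference exceeded the mismatched one, were scaf, rib, onecut, SAK and Cf2. For scaf, a secreted protease-like protein without catalytic activity, the own-pair difference was 0.27, the mismatched one -0.12, and the difference between them 0.39 ± 0.06. The genes onecut and Cf2, which encode transcription factors, had values of 0.41 ± 0.07 and 0.40 ± 0.07, and SAK, the kinase that starts centriole duplication, had 0.50 ± 0.08. The value for rib was 0.43 ± 0.07 at levels near 3. On the negative side stood acs at -0.48 ± 0.07, CG13482 at -0.49 ± 0.09, Drsl4 at -0.72 ± 0.12, Vha16-4, a proton pump subunit, at -0.34 ± 0.06, and Tsp2A, a tetraspanin of gut septate junctions, at -0.34 ± 0.06. In acs the Prom pairs lay at 5.73, 5.92, 5.68 and 5.96 and the Mono pairs at 6.04, 6.40, 6.09 and 6.28, without overlap, while the mismatched difference was 0.10.

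Between the mismatched crosses themselves no probe set passed either, at a lowest adjusted p of 0.395, with 1862 probe sets (9.92%) at an unadjusted p under 0.05. The median size of the difference over genes was 0.06, against 0.05 in own pairs. Whether the mismatched crosses differ more than the own pairs was not tested.

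Populations of the same regime differed in ways that did pass a test. Judged against the spread between their 2 arrays, 318 probe sets (1.69%) differed among the 4 Prom pairs and 517 (2.75%) among the 4 Mono pairs (limma F test with batch as a term, adjusted p under 0.05). By gene these were 251 (2.09%) and 406 (3.39%), with 121 in both. That test measures differences against array-to-array spread, whereas the comparison of regimes measures against spread between populations. Over genes the median SD among populations was 0.08 in Prom pairs and 0.09 in Mono pairs. It was the larger in Mono pairs in 53.3% of genes.

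Of the genes that differed, those with the widest range in Prom pairs were Cyp12d1-d, CG3397, CG6357, CG31955, Cyp4d21 and CG34251. Cyp12d1-d, a mitochondrial cytochrome P450 known in flies for its part in insecticide resistance, stood at 8.82, 7.96, 5.14 and 8.50 in the Prom populations and at 8.64, 6.34, 3.82 and 6.87 in the Mono populations, so that the population numbered 3 was lowest in both regimes. The gene has a nearly identical neighbour, and its probe set may read both. CG34251 was high in Prom4 pairs alone, at 7.78, with the other Prom populations between 3.70 and 4.12. CG3397 stood at 7.16 and 7.45 in Prom1 and Prom2 and at 4.35 and 4.90 in Prom3 and Prom4. In Mono pairs the widest ranges were those of DptB, CG6765, Cyp12d1-d, CG7298, CG32302 and RalGPS. CG6765 was low in Mono1 pairs alone, at 3.30 against 8.81, 8.51 and 8.46 in the other Mono populations, and Mono1 females with Prom1 males also had it low, at 3.55. RalGPS, which encodes an activator of the GTPase Ral, stood at 6.13, 9.35, 9.44 and 7.02. In none of these did the regimes separate, and the adjusted p of the difference between regimes was at least 0.889 in each.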

How the data were processed

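Whole-female RNA of 16 own-pair and 16 mismatched crosses was measured on Affymetrix arrays. The authors deposited 1 table of log2 values, made with RMA in the affy package per the submitters' processing notes. Versions, and whether all arrays were normalised together, are not given in the sources used here. RMA makes array distributions alike, so a shift shared by most genes would be removed. Control probe sets (183 of 18952) were left out. Of 18769 probe sets, 13646 had 1 gene symbol, 402 several and 4721 none in the platform table. Of those with 1, 13543 matched RefSeq (Release 6 plus ISO1 MT), used for chromosome names only.

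Means of each cross's 2 arrays (batches) entered limma 3.58.1 in R 4.3.3. All p-values of single genes come from limma, and adjusted ones are Benjamini-Hochberg values over 18769 probe sets. The difference of differences used population numbers 1 to 4. The F test among populations used single arrays with batch as a term. Nothing in the labels says whether the 2 arrays of a cross came from separate females. The number of populations, 4 a side, limits the precision. On simulated data, 84% of 0.5 log2 shifts and 98% of 1 log2 shifts between P.P and M.M were called. These shifts were the same in every population. There were 50 each of 0.5, 1, 2 and 4 log2, and so many true shifts ease the adjusted threshold. In that simulation 6 unshifted probe sets were also called. The shares do not say how often such shifts would be called in the data, where no probe set passed.

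The naming rule took, with 1 probe set a gene (the brightest), every passing gene, the 10 genes of lowest p and the 6 largest non-overlapping differences with the same sign in both batches per direction, the 5 lowest-p genes of each list (all of lists up to 10), the 5 lowest-p genes per direction for own minus mismatched, and the 6 widest-ranging passing genes within a regime. This gave 246 genes. The text describes 148 of them, a choice made after their values were seen. The other 98, all from gene lists, had differences from -0.35 to 0.37, 44 higher and 54 lower, 26 with an unadjusted p under 0.05. Mal-A6, Obp56h, eater and the tissue markers fall outside the rule. The members and the 40 gene lists were chosen with earlier results of these data known, and 160 list symbols had no probe set naming that gene alone. Same-numbered populations were not taken as pairs in the comparison of regimes, and whether they share an origin is not stated in the sources used here. Alternatives were other normalisations, filters, batches, units and leaving out each population.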

Additional observations from a re-analysis of the deposited data

Results flagged for a closer look

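In groups of 4 populations, a population was singled out when its gap to the nearest of the other 3 was large beside the group's whole range (Dixon's 95% limit). Of 296 groups examined for 148 named genes, 19 were singled out, or 6.42%, where chance alone gives about 1 in 20 groups. None of these values was explained or tested further.

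Among Mono pairs, Mono1 stood apart in PGRP-SC2, at 8.62 with the nearest population 1.70 higher, and in Mal-A7, at 8.07 with the nearest 0.92 higher. It also stood apart in CG6765, at 3.30 with the nearest 5.16 higher, and in TotC, at 9.39, 1.75 above the next. Mono2 stood apart in Vm32E, at 10.33, 0.18 above the next, and Mono3 in Muc4B, at 6.68, 0.46 below the next.

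Among Prom pairs, Prom1 stood apart in InR, at 7.63 with the nearest 0.56 higher, in Zip88E at 8.09, and in Yp3 at 14.53. Prom2 stood apart in BomBc3 at 9.43, 0.38 above the next, in GstE1 at 11.80, 0.48 above the next, and in Ugt37B1 at 6.39, 0.27 below the next. Prom3 stood apart in CG10029 at 4.48, in Yp1 at 14.77, where the gap was 0.03, and in TotB at 3.33, near the floor of the arrays. Prom4 stood apart in Jhe at 5.83, 0.52 below the next, in CG43402 at 4.33, 0.16 above the next, in TotC at 6.91, 0.87 below the next, and in CG34251 at 7.78, 3.67 above the next.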

How the results depend on the processing

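Of 2307 alternative values for 129 genes between Prom and Mono pairs, 2254 kept their direction and their side of the threshold, 23 passed under an alternative and 30, in 19 genes, changed direction. Alternatives that changed only the error estimate or the probe sets kept left each difference as it was. These were the fits with all 4 groups, single arrays, either block or a variance trend, and the level filter. Their values could not change direction, so the tally overstates how firm the directions are. The count of 0 passing probe sets became 2 with all 4 groups in the fit, 16 with the arrays as independent replicates and 11 with population as a random block, and 0 to 1 when populations were left out (1, CG2993, without Mono1). With the population number as a replicate block it was 2, although same-numbered populations deviated together with correlations of only -0.01 to 0.16 and so were not taken as pairs. With a mean level of at least 6, 587 probe sets had an unadjusted p under 0.05, out of 8668 kept. For own minus mismatched that count was 963 in the second batch and 1146 to 2048 without a population number, the lowest without number 3.

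Other probe sets reversed CG40485 (0.17), Tsf1 (0.022), SPR (-0.0034), gce (0.045), Octbeta1R (-0.013) and tapas (0.056). In the first batch Cp19 was 0.12, Cp16 0.46, Mur11Da 0.20, Ddc 0.028, antr -0.13, TotC 0.065 and rib, own minus mismatched, -0.035. In the second yl was 0.010, Cp18 -0.74, Muc12Ea -0.30 and TotE 0.10. Without a population Cp15 ran from -0.26 to 0.038, Cp16 from -0.72 to 0.20, Cp18 from -0.63 to 0.63, Muc4B from -0.047 to 0.31, Muc12Ea from -0.16 to 0.42, TotC from -0.55 to 0.11, TotE from -0.11 to 0.030 and TotF from -0.11 to 0.015. The cause was not tested. Of 492 list medians 14 moved by more than the spread between populations. In the first batch they were 0.057 for the piRNA pathway, 0.10 for octopamine and ovulation, 0.11 for juvenile hormone, 0.054 for ecdysone, 0.071 for the circadian clock and -0.0042 for mitochondrial ribosomal proteins. In the second they were -0.020 for octopamine and ovulation, -0.025 for the sex peptide response, -0.023 for ecdysone and 0.062 for mitochondrial ribosomal proteins. With cyclic loess they were 0.024 for octopamine and ovulation and -0.0026 for all genes. The octopamine list was -0.0048 over all its probe sets and 0.025 to 0.075 without a population. Levels near 3 to 4 lie at the arrays' floor and limit what can be read from weakly expressed genes.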
